A study of Mus musculus with 10 samples.

Results

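Tetraspanins are small membrane proteins that cross the membrane several times and gather integrins, MHC molecules, proteases and each other into patches of the cell surface and of endosomes. Some are carried by nearly all leukocytes, others act as chaperones of one partner, such as the C8 group, which brings the sheddase ADAM10 to the surface. In dendritic cells they associate with MHC class II, and CD37 and CD82 are known to act in opposite directions on migration. The genes described here are the 27 whose mouse symbol is Tspan followed by a number, or is Cd9, Cd37, Cd53, Cd63, Cd81, Cd82 or Cd151, of 41813 genes listed in the tables and 41597 with a symbol. The rule itself reads gene names and no measured value, though the family was picked with earlier results of these data known.

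RNA was measured in mouse bone marrow-derived dendritic cells, recorded as CD11c+ with high MHC class II, in 3 libraries titled activated and 3 titled non-activated. By the series design all cells received LPS and differed in whether they were pulsed with the OVA323-339 peptide before 24 h with CD4+ OT-II T cells, which recognise that peptide; the sample labels instead record LPS for the activated cells and none for the others. The group names of the titles are kept here, since the labels and the design text differ. Strain, age and sex of the mice, and whether replicates were separate animals or cultures, are not given in the sources used here, so each p-value reflects the spread among libraries alone, and that spread may be technical. The 4 ATAC samples of the series were not analysed here. These are bulk libraries, in which fewer cells of a type and less RNA per cell cannot be told apart.

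Summed expected counts ran from 21338012 to 27404937 per library. All 12 dendritic cell markers looked up were detected, with summed TPM (transcript abundance scaled for gene length and library size) of 16360 to 22010 in activated and 18790 to 23150 in non-activated cells. The replicate 1 libraries of both groups stood apart. Trac, the constant region of the T cell receptor alpha chain, took 0.728% and 0.758% of their counts against at most 0.00273% elsewhere. In those libraries it held 4.12% and 4.11% of all TPM, which lowers every other TPM there by that share. Of 18 T cell markers none was at 0 in all libraries. Trbc2 was also high in the replicate 1 libraries, at 297 TPM in activated and 292 TPM in non-activated cells, against 1.51 to 5.57 TPM elsewhere. Il7r was high in all libraries, at 182 to 205 TPM in activated and 240 to 249 TPM in non-activated ones. Trac, Trbc2 and Il7r (these 3 were set aside after their values were seen) left 15 others. Those summed to 27.6 to 47.4 TPM in activated and 14.8 to 27.8 in non-activated cells. Cd28 was the largest of the 15 in non-activated libraries, at 5.85 to 14.95 TPM, against 3.41 to 7.91 TPM in activated ones. Cd3e went the other way, at 0.65 to 2.98 TPM in activated and 0.17 to 0.38 TPM in non-activated libraries. The summed markers of B cells (3.27 to 6.82 TPM) and neutrophils (0.94 to 2.13, with Retnlg at 0) were low in all libraries. Those of NK cells were at 5.63 to 15.4 TPM in activated and 13.7 to 26.1 TPM in non-activated libraries. All NK cell markers but Klrk1 were under 1 TPM in every library, with Klrb1c at 0. Those of mast cells and basophils did not overlap, with 4.87 to 9.86 TPM in activated and 15.0 to 17.9 TPM in non-activated libraries, nearly all from Gata2 (mean 6.07 and 16.25 TPM). The other 5 of these markers, Cpa3, Mcpt8, Mcpt4, Ms4a2 and Prss34, were at most 1.13 TPM in any library, with means slightly above those of non-activated cells in the activated ones. Of 10 tested T cell markers, 3 were higher, 1 lower and 6 did not pass. The summed macrophage markers were at 481 to 684 TPM in activated and 590 to 659 TPM in non-activated libraries, and those of megakaryocytes and platelets, nearly all from Pf4 and with Gp9 at 0, at 56.1 to 83.0 and 76.0 to 135 TPM. The part of other cells in the results below was not tested; each called tetraspanin is also given without both replicate 1 libraries.

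Cd82 and Cd81 rose together with Tspan33, while Tspan13 fell, and these were the largest changes of called members. The 250 bases before their RefSeq starts are shown to set the sequence of the genes that moved most beside that of Tspan32, the direct neighbour of Cd81, which also rose. The windows are from GRCm38.p6, written 5′ to 3′ along each gene's strand: Cd82 at chr2:93462951-93463200 (minus strand, the outermost of 4 starts), Cd81 at chr7:143052500-143052749 (plus), Tspan33 at chr6:29693964-29694213 (plus), Tspan13 at chr12:36042479-36042728 (minus) and Tspan32 at chr7:143004796-143005045 (plus, before a listed start 139 bases inside the gene). Capitals mark matches, on either strand, to any of the motifs named after them.
Cd82: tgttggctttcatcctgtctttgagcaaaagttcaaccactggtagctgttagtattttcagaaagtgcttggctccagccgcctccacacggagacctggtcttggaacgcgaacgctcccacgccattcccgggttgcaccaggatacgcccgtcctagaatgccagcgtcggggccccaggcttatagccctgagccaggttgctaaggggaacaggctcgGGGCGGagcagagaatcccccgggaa
Cd81: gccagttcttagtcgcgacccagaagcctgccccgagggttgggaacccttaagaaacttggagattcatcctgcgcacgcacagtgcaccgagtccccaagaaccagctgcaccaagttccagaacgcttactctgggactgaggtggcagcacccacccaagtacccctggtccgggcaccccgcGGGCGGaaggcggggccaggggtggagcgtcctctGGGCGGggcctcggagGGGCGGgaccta
Tspan33: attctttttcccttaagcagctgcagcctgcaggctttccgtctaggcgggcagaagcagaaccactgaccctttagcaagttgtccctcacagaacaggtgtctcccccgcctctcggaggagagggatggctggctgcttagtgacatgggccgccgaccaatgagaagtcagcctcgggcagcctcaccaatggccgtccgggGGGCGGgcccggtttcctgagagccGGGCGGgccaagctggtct
Tspan13: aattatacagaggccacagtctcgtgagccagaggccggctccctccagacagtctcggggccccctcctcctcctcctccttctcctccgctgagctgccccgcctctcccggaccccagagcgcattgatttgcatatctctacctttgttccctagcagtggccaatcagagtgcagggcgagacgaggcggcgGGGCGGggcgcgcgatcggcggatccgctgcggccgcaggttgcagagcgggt
Tspan32: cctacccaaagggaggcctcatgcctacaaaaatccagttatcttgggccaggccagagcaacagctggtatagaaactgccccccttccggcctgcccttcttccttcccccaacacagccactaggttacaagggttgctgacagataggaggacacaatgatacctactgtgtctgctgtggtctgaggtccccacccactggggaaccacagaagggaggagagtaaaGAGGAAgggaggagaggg

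The capitals in Cd82, Cd81, Tspan33 and Tspan13 are GC boxes (GGGCGG), with 1, 3, 2 and 1 matches, and those in Tspan32 are a PU.1 core (GAGGAA). Of 32817 RefSeq windows of this length, 32.7% hold the GC box and 23.3% the PU.1 core. The same search looked for the NF-kappaB consensus (by name; 3.9% of windows), the interferon-stimulated response element (by name, 2.97%), AP-1 (TGANTCA, 6.75%; it reads alike on both strands) and a TATA box (TATAAA, 12.4%), and none of these was found in the 5 windows. No match says only that these letters are not in these 250 bases. Among the 26 members with a window, 14 held a GC box and 7 a PU.1 core, the latter a share near that of all windows. The 7 were Cd53, Cd63, Cd37, Tspan31, Tspan14, Tspan32 and Tspan6, the last with 0 to 2 counts per library. The Cd53 window lies directly before the gene start. Those of the other PU.1 holders lie before listed starts 139 bases (Tspan32) to 13114 bases (Cd63) inside the gene. The window of Tspan32 differed in base composition from the other 4, with 1 CpG and 55.6% G and C, against 13 to 21 CpG and 58.4% to 66.0% in the others; the median over all windows was 6 CpG and 52.4%.

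Tetraspanins were abundant in both states. On the deposited TPM scale, which is per length and so allows genes to be set side by side, 7 members averaged above 100 TPM, 16 above 10 and 18 above 1. In non-activated cells the pan-leukocyte member Cd53 led with 766 ± 47.2 TPM (SD, n = 3), followed by Cd9, a partner of MHC class II and integrins, at 414 ± 18.3. Cd63, the marker of late endosomes and exosomes, stood at 296 ± 81.4 and Tspan3 at 246 ± 11, within each other's spread. Tspan13 (162 ± 3.34), Cd82 (119 ± 6.12), Cd81 (113 ± 25.8) and Cd37 (99.3 ± 14.0) came next, the last 3 of them within their spread.

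In activated cells the order was different. Cd53 was again first at 763 ± 140 TPM, now with Cd82 at 671 ± 14.9 within its spread, then Cd81 at 442 ± 41.7. Cd9 (361 ± 5.65), Cd63 (334 ± 96.7) and Tspan3 (272 ± 9.35) followed by their means, with Cd63 overlapping Cd9, Tspan3 and also Cd81. Tspan33 (108 ± 11.5), Tspan31 (99.6 ± 14.0) and Cd37 (87.7 ± 15.2) could not be ordered beyond their spread, and Tspan13 had moved down to 53.4 ± 9.32. The summed TPM of all 27 was 3024, 3577 and 3367 in the activated libraries, by replicate number, and 2292, 2615 and 2424 in the non-activated libraries, so the groups did not overlap. Cd82 made up 20.3% ± 1.42 of that sum in activated and 4.90% ± 0.517 in non-activated cells, and Cd53 22.8% ± 2.34 and 31.3% ± 0.317 (SD, n = 3).

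**Figure D1:**
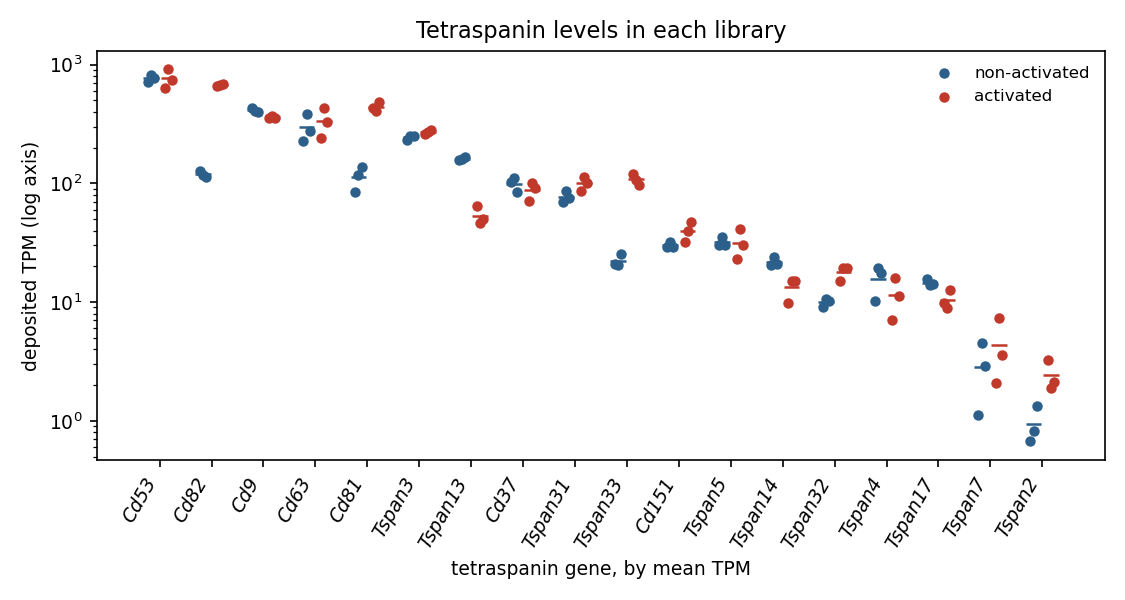
Deposited TPM (log axis) of the 18 tetraspanins with a mean above 1 TPM, each point 1 library and each short line a group mean, non-activated in blue and activated in red. Cd82, Cd81 and Tspan33 sit higher in all 3 activated libraries and Tspan13 lower, while the means of Cd53 are 763 and 766 TPM.

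Differences were tested on the expected counts of all genes at once with edgeR's quasi-likelihood test, Benjamini-Hochberg adjusted over 13946 tested genes. Values per library are given below as CPM (counts scaled to library size, with TMM factors), the scale of the test. Of the 27 members 21 passed the filter on low counts, none of them through 1 group alone, and 7 passed an adjusted p of 0.05, or 33.3%. Over all tested genes 27.6% passed. By direction 5 of 21 were higher (23.8%, against 15.9% of all tested genes) and 2 lower (9.52%, against 11.7%), so the shares lie near those of all genes. The median log2 fold change of the 21 was 0.14, and 0.01 over all tested genes. In 10 of the 21 (47.6%) the groups did not overlap in CPM, as in 44.7% of all tested genes.

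Cd82, also known as KAI1 and as a suppressor of metastasis, lies on chromosome 2 (93419102 to 93462950). Its values were 664, 648 and 593 CPM in the activated libraries, by replicate number, and 119, 116 and 106 CPM in the non-activated. The lowest activated library was thus far above the highest non-activated one, and the ratio between libraries with the same number was nearly constant at 5.59, 5.60 and 5.59. The gene was 5.60-fold higher (log2 2.48 ± 0.09, SE; edgeR adjusted p = 1.99e-06).

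Cd81, a widely expressed tetraspanin, lies on chromosome 7 (143052750 to 143067930). It stood at 407, 373 and 426 CPM in activated and 81.1, 108 and 116 CPM in non-activated cells. All activated libraries were above all non-activated ones, and non-activated replicate 1 was the lowest of the 6. The gene was 3.96-fold higher (log2 1.99 ± 0.14, SE; edgeR adjusted p = 4.22e-05). The non-coding gene R74862 overlaps it and went from 1.28 to 4.78 CPM (edgeR adjusted p = 0.000685). Only the spans of the genes were compared, and whether their exons overlap was not examined. The labels do not say that strand was kept, so reads from any shared exon stretch could not be told apart. The level of R74862 was small beside that of Cd81.

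Tspan32 ends 33.3 kb before the start of Cd81 on the same chromosome, with no protein-coding gene between them. It encodes a tetraspanin of blood cells that is known to restrain T cell proliferation. It was at 18.7, 23.0 and 21.1 CPM in activated and 10.5, 12.8 and 10.5 CPM in non-activated cells, again without overlap. The rise was 1.86-fold (log2 0.89 ± 0.13, SE; edgeR adjusted p = 0.0014). The other close pairs did not share a call. Tspan9 and Tspan11, 8.36 kb apart on chromosome 6, could not share one, since Tspan11 had 0 counts and was not tested. Cd82 rose while Tspan18, 84.6 kb away on chromosome 2, was at 0.864 CPM in activated cells and at 0.934 CPM in non-activated ones (edgeR adjusted p = 0.88), and Cd151 and Tspan4, 3.75 kb apart on chromosome 7, had estimates of opposite sign, neither passing.

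Tspan33, the C8 member also called penumbra, was the other large riser. It lies on chromosome 6 (29694214 to 29718558). Its activated libraries held 155, 135 and 119 CPM and its non-activated ones 27.5, 26.0 and 30.6 CPM, with no overlap. It was 4.87-fold higher (log2 2.28 ± 0.12, SE; edgeR adjusted p = 1.20e-05).

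Of the other 3 tested C8 members, 1 fell and 2 did not pass. Tspan14, the one that fell, was at 14.9, 19.8 and 19.6 CPM in activated and 27.5, 30.5 and 27.5 CPM in non-activated cells, without overlap, and fell by 0.65 on the log2 scale (SE 0.13; edgeR adjusted p = 0.00579). Tspan5 stood at 47.4 ± 11.2 and 49.5 ± 5.57 CPM (SD, n = 3; edgeR adjusted p = 0.81) and Tspan17 at 7.14 ± 1.23 and 8.41 ± 0.938 CPM (edgeR adjusted p = 0.35), both with overlapping groups. On the deposited TPM, which is scaled for the assigned length, the Tspan17 groups did not overlap, at 8.94 to 12.6 against 13.8 to 15.6 TPM. The difference did not pass there either (limma on log2 of TPM plus 1, adjusted p = 0.0753). Its assigned length averaged 1182 bases in activated and 1031 bases in non-activated libraries. The remaining C8 members, Tspan10 and Tspan15, had at most 7.29 counts in any library. The summed TPM of the group was 155 to 171 in activated and 87.0 to 93.9 in non-activated cells. Tspan33 supplied 66.1% ± 6.61 of it in activated and 24.5% ± 3.02 in non-activated cells, where Tspan5 held the largest share, 35.1% ± 2.34 (SD, n = 3).

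**Figure D2:**
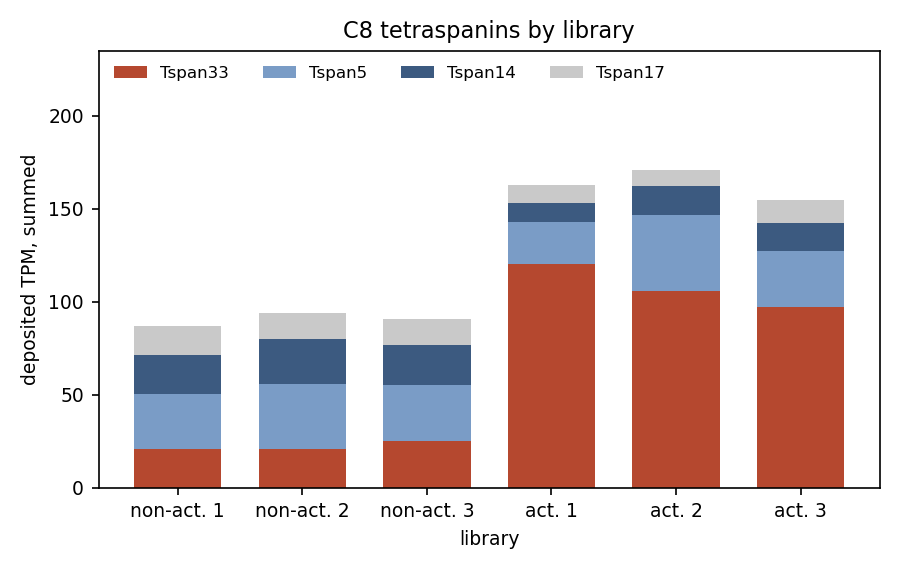
Deposited TPM of the 4 detected C8 tetraspanins, stacked for each library (act., activated; non-act., non-activated), with Tspan33 at the bottom. Its segment grows from 20.6 to 25.4 TPM in the non-activated libraries to 97.4 to 120 TPM in the activated ones, while the segments of Tspan14 and Tspan17 are thinner there.

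Tspan13, on chromosome 12 (36014555 to 36042478), was the member with the strongest fall. It had 74.8, 53.9 and 52.5 CPM in activated and 187, 187 and 179 CPM in non-activated libraries. The groups lay far apart, with activated replicate 1 nearest to the other group. Its level fell by 1.61 on the log2 scale (SE 0.14; edgeR adjusted p = 0.000106), to 0.328 times the non-activated value.

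Tspan2, a tetraspanin best known from oligodendrocytes, was the least abundant of the called members. It was at 7.10, 4.27 and 3.10 CPM in activated and 1.22, 1.39 and 2.68 CPM in non-activated cells. The groups did not overlap, but the activated and non-activated libraries of replicate 3 were close, with a ratio of 1.16 against 5.83 and 3.08 in the others. The fold change was 2.74 (log2 1.46 ± 0.40, SE; edgeR adjusted p = 0.028). This call was lost without activated replicate 1 (edgeR adjusted p = 0.0874), non-activated replicate 1 (0.0847) or 2 (0.0934), and without both replicate 1 libraries the log2 fold change was 0.83 (0.183), within 0.00234 to 0.183 over all alternatives. The other 6 calls passed in every alternative. Without both replicate 1 libraries the log2 fold changes were 2.47 for Cd82, 2.15 for Tspan33, 1.82 for Cd81, 0.90 for Tspan32, -0.57 for Tspan14 and -1.80 for Tspan13.

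**Figure D3:**
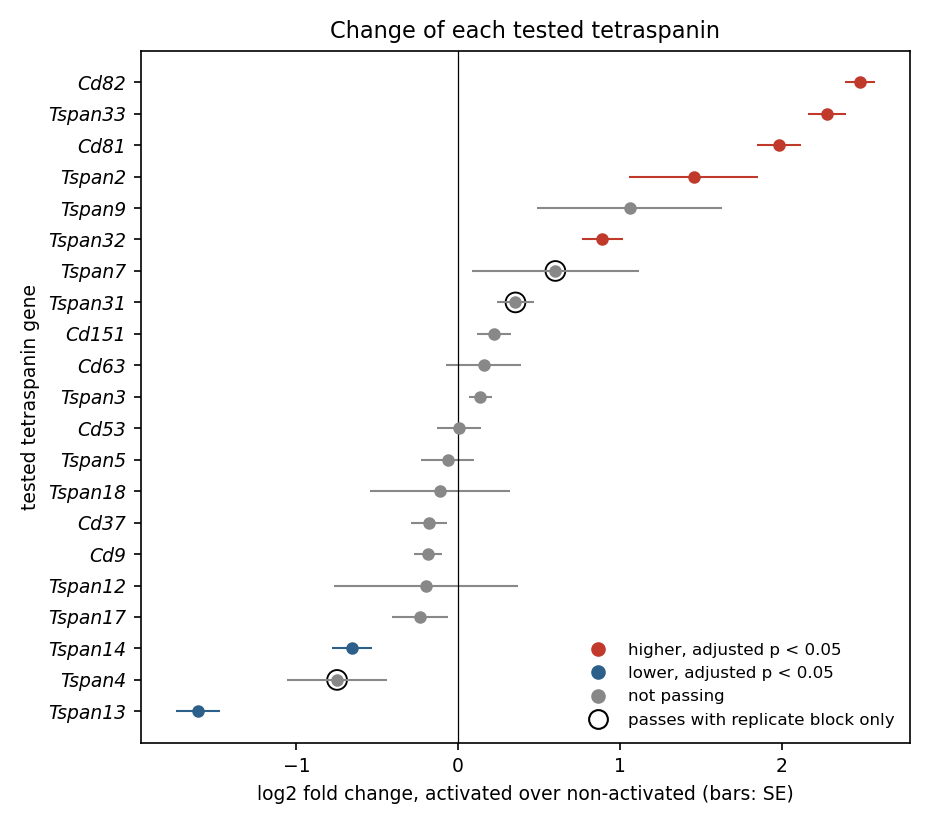
Log2 fold change, activated over non-activated, of the 21 tested tetraspanins, with bars of 1 SE; red and blue points passed an adjusted p of 0.05 in edgeR and grey ones did not. Cd82, Tspan33 and Cd81 lie near or above 2 and Tspan13 at -1.61. Black rings mark Tspan31, Tspan4 and Tspan7, which passed with the replicate block but not in the fit plotted here.

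Deviations of libraries with the same replicate number were positively correlated (r of 0.40, 0.31 and 0.19), which cannot establish that they are paired. If the numbers do pair them, a fit with the number as a block bears on members whose level differed between replicates. In that fit 10 of the 21 members passed, 7 higher and 3 lower (47.6%, against 37.2% of all tested genes), the 7 above and 3 more. Tspan4, known for its part in migrasomes, the vesicles left behind by migrating cells, was at 4.01, 8.83 and 6.70 CPM in activated and 7.39, 13.6 and 11.7 CPM in non-activated cells. The groups overlapped, yet within each replicate number the activated library was lower, at 0.544, 0.649 and 0.573 times the non-activated one. Its edgeR adjusted p was 0.11 without and 0.0023 with the block (log2 -0.75 and -0.76). It also passed in DESeq2 (0.0419) and without both replicate 1 libraries (0.0283), but not on the deposited TPM, where the log2 fold change was -0.44 (limma adjusted p = 0.376). TPM is scaled for the assigned length, which averaged 1017 bases in activated and 1208 bases in non-activated libraries. The protein-coding Chid1 overlaps Tspan4 and was at 27.7 against 25.4 CPM (edgeR adjusted p = 0.483). Reads from any exon stretch shared with Chid1 could be counted for either gene, though exon overlap was not examined.

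Tspan31, which was found next to Cdk4 in amplified tumour DNA, was at 78.9, 104 and 87.6 CPM in activated and 67.2, 77.8 and 66.4 CPM in non-activated cells. The groups did not overlap, though the lowest activated value was close to the highest non-activated one. Its log2 fold change of 0.35 had an edgeR adjusted p of 0.0536 without and 0.00539 with the block. Tspan31 also passed in DESeq2 (0.0339), and in edgeR with no filter (0.0401), without activated replicate 1 (0.0215) and without both replicate 1 libraries (0.0488). It did not pass with RLE factors (edgeR adjusted p = 0.055), on TPM plus 1 (limma, 0.085) or without any other single library (edgeR, up to 0.171). Cdk4 overlaps it on chromosome 10 and was itself higher, at 57.0 against 46.9 CPM (edgeR adjusted p = 0.0237). Reads from any shared exon stretch could be counted for either, though exon overlap was not examined. Tspan7 was at 2.53, 8.14 and 4.04 CPM in activated and 1.45, 5.04 and 3.16 CPM in non-activated cells. Replicate 2 was highest and replicate 1 lowest in both groups, and its edgeR adjusted p was 0.43 without and 0.0451 with the block.

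**Figure D4:**
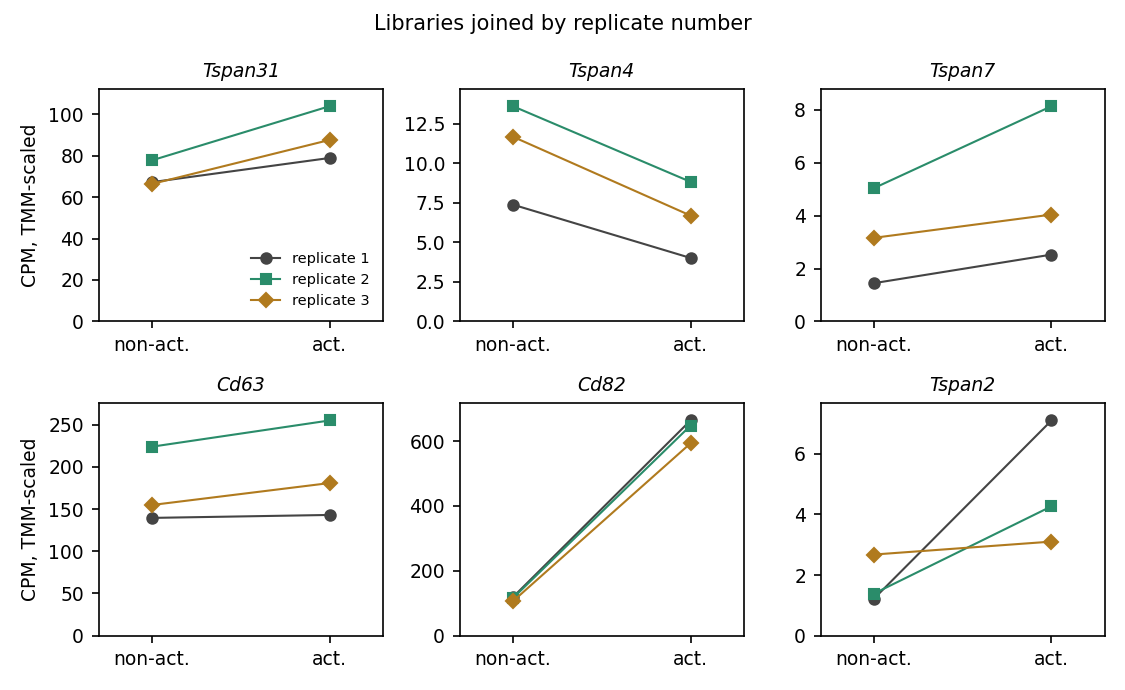
CPM of 6 members in non-activated and activated libraries, with lines that join libraries of the same replicate number. The lines of Tspan4 and Tspan7 run in 1 direction at different heights, those of Cd82 almost coincide, and those of Tspan2 differ in slope.

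Among the 6 most abundant members, 4 did not pass. Cd53 was at 694, 976 and 767 CPM in activated cells and 791, 861 and 776 CPM in non-activated ones, with overlapping groups and a log2 fold change of 0.00 ± 0.14 (SE). Cd9 was at 262, 263 and 245 CPM against 320, 289 and 269 CPM, every activated library lower, with a log2 fold change of -0.19 ± 0.09 (SE; edgeR adjusted p = 0.151, and 0.0743 with the block). Tspan3 was at 279, 280 and 275 CPM against 249, 261 and 248 CPM, every activated library higher, with a log2 fold change of 0.14 ± 0.07 (SE; edgeR adjusted p = 0.18). Cd63 varied more between replicates than between groups: it was at 143, 255 and 181 CPM in activated cells and 140, 224 and 155 CPM in non-activated ones, and replicate 2 was highest in both (log2 0.16 ± 0.23, SE; edgeR adjusted p = 0.655).

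Cd37, which binds the fungal receptor dectin-1, was at 67.1 ± 7.47 CPM in activated cells and at 76.1 ± 7.72 CPM in non-activated ones (SD, n = 3; edgeR adjusted p = 0.262). Cd151, the partner of laminin-binding integrins, was at 34.9 ± 4.17 and 29.9 ± 1.88 CPM (edgeR adjusted p = 0.159). Tspan9, Tspan12 and Tspan18 passed the filter with group means between 0.263 and 0.934 CPM, and SEs of 0.43 to 0.57 on the log2 scale. Their depth leaves those wide errors, and no difference was detectable in these 3. The 6 members that were not tested, Tspan1, Tspan6, Tspan8, Tspan10, Tspan11 and Tspan15, had 0 to 11 counts per library and at most 0.71 TPM. Tspan11 had 0 counts in all 6 libraries, which allows up to 0.109 to 0.141 CPM in a library (3 counts, counting error only).

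The tables also give a mean transcript length per gene and library, weighted by the isoforms assigned, which changes where isoform use changes. Among the 20 tested members with a varying length the groups did not overlap in 5 (25.0%), as against 12.8% of tested genes with a varying length. Tspan4 was assigned a mean length of 983 to 1081 bases in activated and 1199 to 1226 bases in non-activated libraries, and Tspan17 one of 1144 to 1208 and 990 to 1066 bases. Cd151 had 1445 to 1559 and 1596 to 1680 bases, Tspan31 1498 to 1515 and 1522 to 1539 bases, and Tspan9, with few counts, 3643 to 3819 and 498 to 2328 bases. The lengths of Cd82, Cd81 and Tspan13 overlapped between groups, and those of Tspan33 met at 2038 bases. Isoform shares were not tested, and single reads of 60 bases assign isoforms with unknown error.

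Genes that tetraspanins work with moved both ways. The counts of the lists below stand beside the 15.9% higher and 11.7% lower among all tested genes. Adam10, the gene of the protease guided by the C8 group, was at 105 ± 1.99 CPM in activated cells and at 96.8 ± 3.82 CPM in non-activated ones (SD, n = 3; edgeR adjusted p = 0.263). Of 18 tested genes in a list of ADAM10, ADAM17 and proteins that ADAM10 can cleave, 7 were higher, 2 lower and 9 did not pass (median log2 fold change 0.30). The Notch ligand Dll4 went from 2.09 ± 0.534 to 131 ± 26.4 CPM (edgeR adjusted p = 1.99e-06), the adhesion receptor Cd44 was 2.86-fold higher (5.19e-05), and Fcer2a, the low-affinity IgE receptor, went from 0.164 to 5.74 CPM (0.000201). The Notch ligand Dll1 was at 0.197 against 0.735 CPM (edgeR adjusted p = 0.0139) and Il6ra, the IL-6 receptor, at 14.9 against 21 CPM (0.0269). The Dll1 call was lost on TPM, without activated replicate 1, without non-activated replicate 3 and without both replicate 1 libraries (adjusted p up to 0.113). The Il6ra call was lost on TPM, without activated replicate 2, without non-activated replicates 1 or 3 and without both replicate 1 libraries (up to 0.146).

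Of 31 tested surface proteins that associate with tetraspanins, 7 were higher, 6 lower and 18 did not pass (median -0.01; 8 higher and 11 lower with the replicate block). Icam1, the ligand of the integrin LFA-1, was 2.82-fold higher (edgeR adjusted p = 4.82e-05) and Itga5, the fibronectin receptor subunit, 2.22-fold higher (5.18e-05), with Cd44, which is on this list too. The interferon-induced Ifitm1 (74.3 against 202 CPM, edgeR adjusted p = 1.61e-05), the receptor Kit (32.4 against 67.1 CPM, 0.00505) and the integrin subunit Itgam (242 against 382 CPM, 0.00608) were lower. Kit is also carried by mast cells, of whose 6 markers Gata2 was lower and the other 5 were at or near 0. Igsf8, a direct partner of CD9 and CD81, is named after its values were seen: it was at 261 ± 50.04 against 70.1 ± 11.3 CPM, 3.72-fold higher (SD, n = 3; edgeR adjusted p = 0.00013).

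Of 27 tested genes of endosome sorting and vesicle release, the machinery that loads Cd63 and its relatives into exosomes, 2 were higher, 3 lower and 22 did not pass (median -0.06). Flot1, a raft scaffold, was at 27.2 against 39.3 CPM (edgeR adjusted p = 0.00816) and the lysosomal membrane protein Lamp1 at 788 against 1130.0 CPM (0.00872). Pld1 (19.4 against 13.8 CPM), Rab31 (48.6 against 38.8) and Flot2 (86.0 against 105) passed, but all 3 calls were lost on TPM. Without non-activated replicate 3 the Pld1 call was lost too (adjusted p up to 0.176). Rab31 kept its call without activated replicate 1 only, among the fits that left out 1 library (up to 0.111), and Flot2 without activated replicate 3 only (up to 0.149). Of 24 tested enzymes that add or remove palmitate, the lipid that tetraspanins carry on cysteines, 5 were higher, 4 lower and 15 did not pass (median 0.01). Zdhhc2, a palmitoyltransferase of CD9 and CD151, went from 3.62 ± 0.987 to 10.3 ± 2.58 CPM (SD, n = 3; edgeR adjusted p = 0.00326). Zdhhc21 was 1.5-fold and Zdhhc5 1.26-fold higher, and Zdhhc4 (0.677 times), Zdhhc7 (0.764 times) and Abhd17a (0.788 times the non-activated level) were lower. The call of Zdhhc5 was lost without non-activated replicate 3 (adjusted p 0.0531), that of Zdhhc7 on TPM (up to 0.0763), and that of Abhd17a without non-activated replicates 1 or 2 or both replicate 1 libraries (up to 0.0697). Of the tetraspanin genes named otherwise, Upk1b and Prph2 had 0 counts in all libraries, Upk1a was at most 0.55 TPM, and Rom1 went from 3.85 to 8.69 CPM (edgeR adjusted p = 0.00579).

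**Figure D5:**
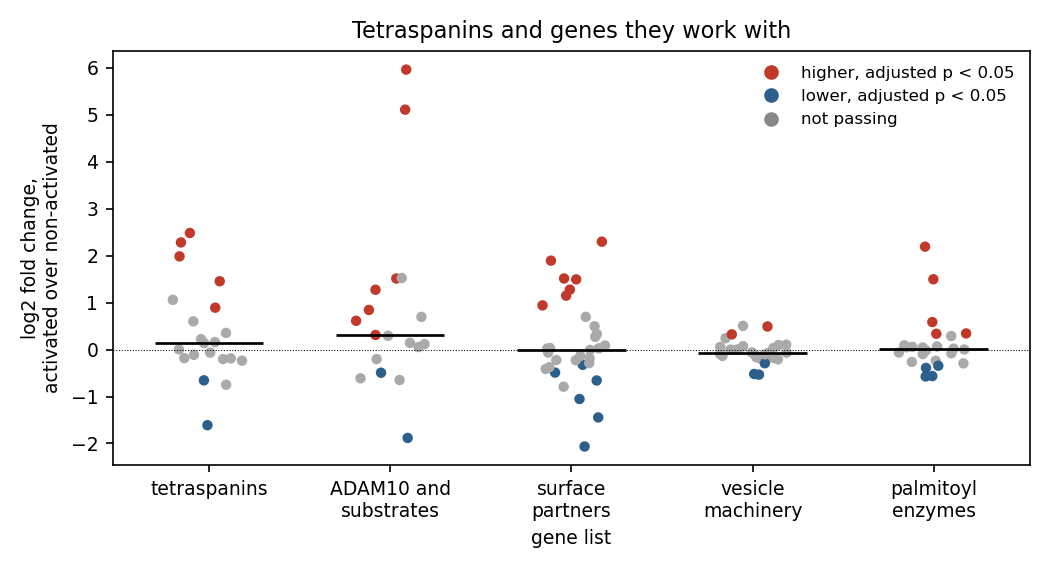
Log2 fold changes, activated over non-activated, of the tested tetraspanins and of the tested genes of 4 lists, each point 1 gene, with black lines at the medians; red and blue points passed an adjusted p of 0.05 in edgeR. The medians lie between -0.06 and 0.30, and each list holds genes on both sides.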

How the data were processed

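Single reads of 60 bases came from NEBNext Ultra libraries (200 ng RNA each), per the labels' protocols, which do not state strand. Per the file headers, the authors deposited RSEM gene tables with an expected count, TPM, FPKM and a mean length per gene. The FPKM values the authors deposited were not used. The submitters' processing notes name GRCm38. For RNA, the sources used here name no aligner. Gene IDs gave the symbols; coordinates and promoter sequences are those of RefSeq on GRCm38.p6.

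Rounded expected counts entered edgeR 4.0.16 under R 4.3.3 (filterByExpr, TMM, glmQLFit and glmQLFTest, group as the only term; Benjamini-Hochberg threshold 0.05; common biological coefficient of variation 16.9%). The SE is the log2 fold change over the root of F. Fits were tested on simulated data. Alternatives were RLE factors, DESeq2 1.42.0, no filter, limma 3.58.1 on log2 of the deposited TPM plus 1 or 0.1, each library left out, a replicate block and, added after seeing the data, leaving out both replicate 1 libraries.

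Each library's deviations from its group's mean were compared across groups: pairs sharing a title number gave r of 0.40, 0.31 and 0.19, other pairs -0.31 to 0.04. Deviations from a group mean sum to 0, so the low values of other pairs follow in part from the positive ones. With 3 libraries per group few pairings are possible, so these values cannot establish the pairing. The numbers were taken to pair the samples in the block fit only, and the labels do not say what they mark. Replicate libraries differed by more than sampling noise (chi-square per degree of freedom, 15.1 to 71.2). Members and gene lists were chosen with earlier results of these data known. Values are given for each called member and the 6 highest by TPM, as well as for the members the block changed; of other lists, the 3 genes with the smallest adjusted p in each direction are named, with ADAM10.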

Additional observations from a re-analysis of the deposited data

How the results depend on the processing

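Calls among all tested genes numbered 3848, and 2664 to 5184 in the alternatives, 5184 being with the replicate block; leaving out 1 library gave 2679 to 3629. Tetraspanins higher numbered 5 (4 to 7, 7 with the block and 4 to 5 without 1 library) and tetraspanins lower 2 (2 to 3). Of 271 values of single members under 13 alternatives, most kept their direction and side of the threshold, 11 gained a call, 4 lost one (all Tspan2) and 21 turned, all of members that did not pass. Cd53 turned from 0.00 to -0.011 with RLE factors and in DESeq2, -0.022 with no filter, -0.019 on TPM with either pseudocount and -0.0085 with the replicate block. Without 1 library it ranged from -0.163 to 0.088, being -0.163 without activated replicate 2, -0.012 and -0.029 without non-activated replicates 1 and 3. Cd63 turned to -0.107 without activated replicate 2 and ranged up to 0.387 without another library. Tspan12 was at 0.053 on TPM plus 0.1 and ranged from -0.575 to 0.0544 without 1 library. Tspan18 turned to 0.092 and 0.287 on TPM plus 1 and 0.1 and to 0.218 without both replicate 1 libraries, and ranged from -0.382 to 0.394 without 1 library. Tspan5 ranged from -0.277 to 0.0596 without 1 library. Tspan9 turned to -0.247 and -0.58 on TPM plus 1 and 0.1. Of all tested genes, 1632 were lower, and 1061 without non-activated replicate 2. Tspan9 and Tspan12 did not pass the filter on low counts without both replicate 1 libraries, so they were not tested there. The cause of the turns, and of the change in the number of lower genes, was not tested. Besides Tspan31, Tspan4 and Tspan7 the block changed no member's call. Low counts limit what can be detected in the tested members under 1 CPM, and the part of depth in their errors was not tested.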
